A study of Mus musculus with 6 samples.

Results

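This set holds 10 genes of complement and of disease-associated microglia in the mouse hippocampus: C1qa, C1qb, C1qc, C3, C4b, Trem2, Tyrobp, Apoe, Cst7 and Lyz2. They were chosen by symbol from the 24346 genes that each library lists, with an earlier contrast of the genotypes in these same libraries already known, so every difference between genotypes given for them is a description. Hippocampal RNA from C57BL/6 mice aged 12 months gave 6 libraries. There were 3 from animals with the genotype TonEBP+/- (HET 1 to HET 3) and 3 from wild-type littermates (WT 1 to WT 3). Both came from crosses of TonEBP+/- animals, backcrossed for 5 to 6 generations to C57BL/6J, and no treatment is named. TonEBP is the tonicity-responsive transcription factor encoded by Nfat5, and neither the nature of the disrupted allele nor any restriction of it to a cell type is stated. Nor do the labels say whether 1 library was 1 animal, so the spread between libraries may in part be technical.

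C1q, the recognition molecule of the classical complement pathway, is assembled from the products of C1qa, C1qb and C1qc, and in the brain microglia are its main source. It binds to synapses, debris and antibody, and starts the cleavage of C4 and then C3, whose fragments mark material for removal by phagocytes. TREM2 is a lipid-sensing receptor of microglia that signals through the adaptor TYROBP. Microglia in a state called disease-associated are known to raise Apoe, Cst7, Lyz2 and Tyrobp and to lower homeostatic genes such as P2ry12. Astrocytes are the main source of apolipoprotein E in healthy brain, and they and oligodendrocytes also transcribe C4b. In bulk tissue, fewer cells of a type and less RNA per cell cannot be told apart.

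The deposited values were read as log2(FPKM + 1), where FPKM counts fragments per length of transcript and per library depth, and levels are given here in FPKM on that reading. Depth is not listed. The spacing of low values pointed to about 8000000 to 12650000 fragments per library. Of the 24346 genes, 13122 reached 1 FPKM in at least 3 libraries and were tested. Nfat5 was at 8.25, 9.31 and 8.42 FPKM in HET 1 to HET 3 and at 10.5, 8.39 and 9.72 FPKM in WT 1 to WT 3. These ranges overlapped and did not check the genotype labels, so genotype here means the label of a library. HET 2 and HET 3 stood apart from the other 4 libraries in thalamus and habenula markers (11 genes tested), with list medians 0.63 and 0.73 below the wild-type mean on the log2 scale, as the plot of gene lists shows. Of the 11, 10 were lower in HET libraries by mean and 1, Tac2, was higher (2.13 FPKM in HET and 1.46 FPKM in WT libraries). This list was set with results of these libraries known, so the separation is a description and no independent evidence. HET 2 and WT 2 also held 3 and 14 values between 0 and 0.001 FPKM, against 2199 to 2609 in each of the other 4 libraries, and what made this difference was not tested.

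The 10 genes spanned more than 3 orders of magnitude (plot of levels). Apoe, the gene of a lipid carrier, averaged 1780 FPKM over the 6 libraries and ranked 44 of 13122 tested genes. C1qb, C1qa, C1qc and Tyrobp followed at 60.9, 51.2, 46.0 and 40.1 FPKM, and Trem2, C4b and Lyz2 at 14.3, 14.1 and 13.7 FPKM. C3 (0.746 FPKM) and Cst7 (0.525 FPKM) came last. FPKM is a value per transcript length, which lets these levels be set beside each other only roughly. The unit was read from the values, and the transcript lengths used are not stated. The ranges over libraries overlapped between neighbours in this order except between Apoe and C1qb, between Tyrobp and Trem2 and between Lyz2 and C3. Tyrobp and Trem2, an adaptor and its receptor, were thus apart in every library, with Trem2 at 0.302 to 0.427 of the Tyrobp level in HET libraries and 0.350 to 0.379 in WT libraries.

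**Figure D1:**
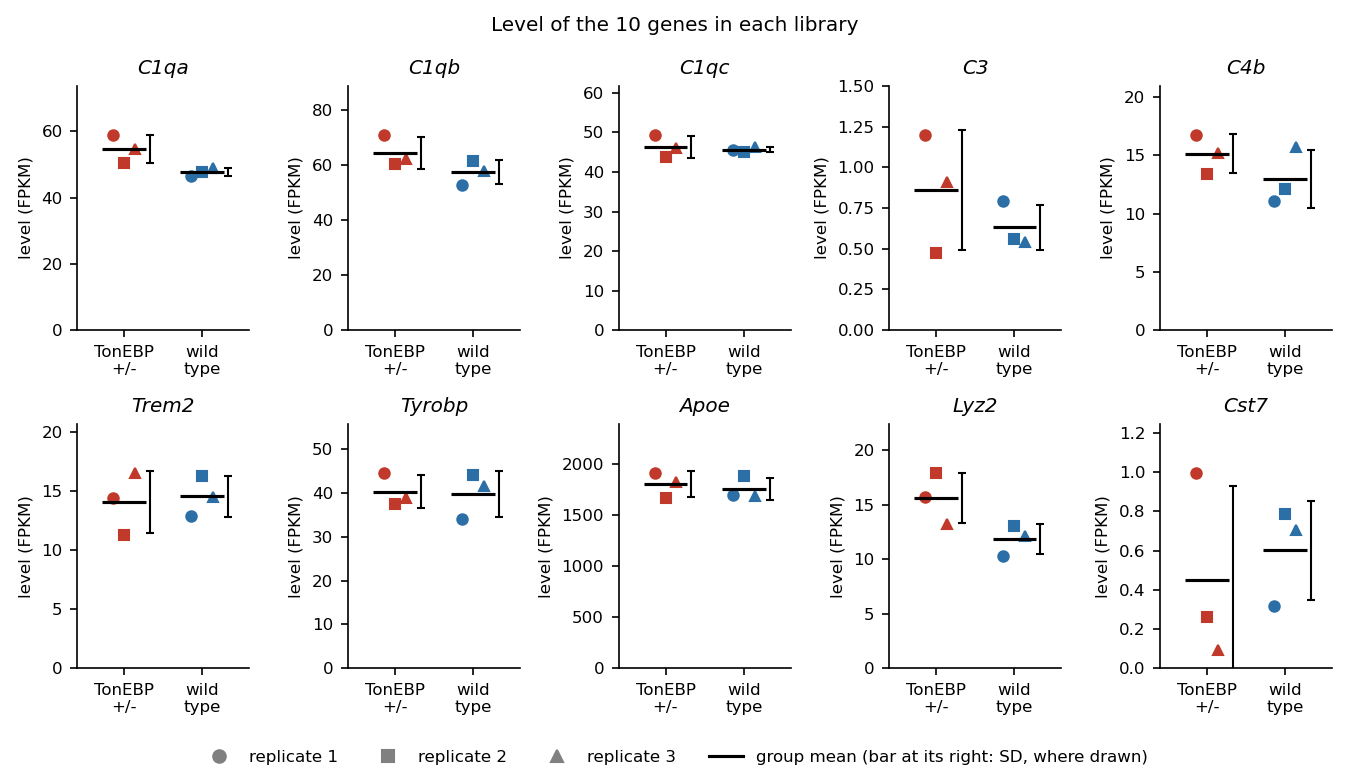
Level in FPKM of each of the 10 genes in the 3 TonEBP+/- libraries (red) and the 3 wild-type libraries (blue), with the group mean as a line and the SD as a bar, which is cut at 0 for Cst7. C1qa and Lyz2 are the genes in which every TonEBP+/- library lies above every wild-type library.

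Of the 10 genes, 8 passed the filter on low values. C3 reached 1 FPKM in 1 library and Cst7 in none, so both were left out of the test. Of the 8 tested genes, 0 passed an adjusted p of 0.05 (limma across 13122 genes, adjusted p = 1.00 for each), against 0% of all genes tested. Their log2 differences, TonEBP+/- minus wild type, ran from -0.05 to 0.37 with a median of 0.10. Of these, 7 were above 0 and 1 below. Over all tested genes 6561 were above 0 and 6561 below, with a median of -0.00. In 2 of the 8, C1qa and Lyz2, all HET libraries lay above all WT libraries, as they did in 4.13% of all tested genes (542 of 13122). All HET libraries lay below all WT libraries in 0 of the 8 and in 576 of the 13122. Because this contrast was known when the genes were chosen, nothing is read from these counts.

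The C1q genes lie side by side within 18.7 kb of chromosome 4 on the minus strand (GRCm38): C1qb at 136880129 to 136886187, C1qc at 136889804 to 136893065 and C1qa at 136895917 to 136898803, each with 3 exons. C1qa, the gene of the A chain, was at 59.0, 50.4 and 54.7 FPKM in HET 1 to HET 3 and at 46.6, 47.6 and 48.8 FPKM in WT 1 to WT 3. The genotypes did not overlap, and the spread was wider in HET libraries. The means were 54.7 ± 4.31 FPKM in HET and 47.7 ± 1.14 FPKM in WT libraries (SD, n = 3 each), and the log2 difference was 0.19 (SE 0.0733, 95% interval 0.03 to 0.36). C1qb, the gene of the B chain, was at 71.0, 60.3 and 62.0 FPKM in HET 1 to HET 3 and at 52.8, 61.5 and 57.8 FPKM in WT 1 to WT 3. HET 1 was the highest and WT 1 the lowest, and HET 2 was below WT 2. Its log2 difference was 0.16 (SE 0.0850, 95% interval -0.03 to 0.35). C1qc, the gene of the C chain, was at 49.4, 43.7 and 45.9 FPKM in HET 1 to HET 3 and at 45.6, 45.0 and 46.4 FPKM in WT 1 to WT 3. HET libraries held both the highest and the lowest value, and the log2 difference was 0.02 (SE 0.0679, 95% interval -0.13 to 0.17). Leaving out 1 library at a time kept C1qa between 0.14 and 0.25. C1qb was at 0.09 without HET 1, more than 1.5 times below 0.16, and at up to 0.22 without WT 2, while C1qc ran from -0.03 without HET 1 to 0.06 without HET 2.

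As a description, the shares of C1qa and C1qc differed between the HET and WT libraries. C1qa made up 32.9%, 32.6% and 33.6% of the summed C1q FPKM in HET 1 to HET 3, against 32.1%, 30.9% and 31.9% in WT 1 to WT 3. C1qc made up 27.5%, 28.3% and 28.2% in HET 1 to HET 3, against 31.4%, 29.2% and 30.3% in WT 1 to WT 3. Neither share overlapped between genotypes, whereas that of C1qb did, at 38.1% to 39.6% in HET and 36.4% to 39.9% in WT libraries. Shares of the same sum are linked, so these are not separate results. As a ratio, C1qa over C1qc was 1.18 ± 0.0236 in HET and 1.04 ± 0.0199 in WT libraries (SD, n = 3 each), with a range of 1.15 to 1.19 in HET and 1.02 to 1.06 in WT libraries. Of the 13121 other tested genes, 2.3% had a ratio to C1qc that was higher in every HET than in every WT library. About 434 to 720 fragments per library lay behind C1qa and 468 to 699 behind C1qc, by the estimated depths. Counting error alone, at 5.31% to 6.65% of the ratio in a single library, was then larger than the SD within either genotype. The ratio was singled out after its values were seen and has no test.

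**Figure D2:**
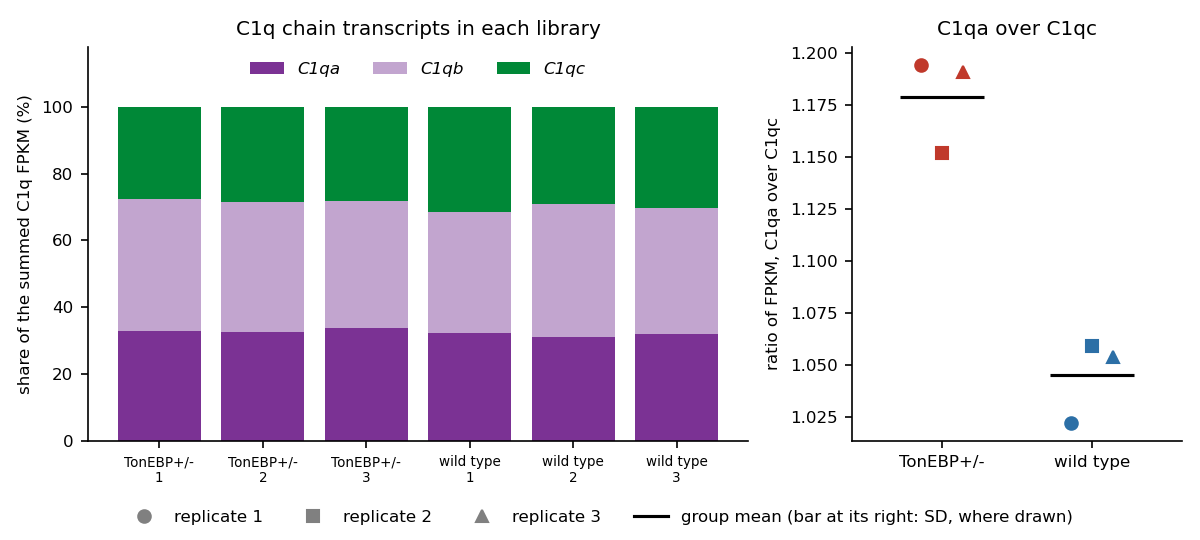
Left, share in percent of the summed C1q FPKM held by C1qa, C1qb and C1qc in each library; right, the ratio of the FPKM of C1qa to that of C1qc in each library, with group means as lines, on an axis that does not start at 0. The ratio lies between 1.15 and 1.19 in TonEBP+/- libraries and between 1.02 and 1.06 in wild-type libraries.

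The sequence before each start site was searched for the core of the tonicity enhancer that TonEBP binds, TGGAAA, and for the core bound by PU.1, GAGGAA, a myeloid transcription factor encoded by Spi1. Both strands of the 250 bases before each RefSeq start (GRCm38.p6) were read, and matches of the 2 motifs did not overlap. RefSeq promoters matched 7 of the 10 genes by symbol, which left out C1qa, C4b and Tyrobp. The tonicity core was in the window of C1qc, C3, Apoe and Cst7, counting Apoe once for its 3 start sites, each with a match. By window, 6 of the 9 windows of these genes held it, of which 3 are those of Apoe, and 18.6% of all 32851 promoter windows did. The windows of C1qb, Trem2 and Lyz2 held none of these letters. The PU.1 core was in 5 of the 9 windows, those of C1qb, C1qc, Trem2 and 2 of the 3 of Apoe, and in 23.3% of all windows. The 30 bases around each tonicity core are printed 5′ to 3′ in the direction of the gene with the core in capitals (TTTCCA is the core on the other strand), because TonEBP is the factor that the genotype concerns. For Apoe the first start site is used.
C1qc, chr4:136892975-136893004, minus strand: agggaaaatttcTGGAAAggggatgtaggg
C3, chr17:57228236-57228265, minus strand: gctccagggtaaTGGAAAtgtgcctagggt
Apoe, chr7:19699345-19699374, minus strand: cccacccacccaTTTCCAtttaggctgcca
Cst7, chr2:150570325-150570354, plus strand: atgatcacagctTGGAAActtctttaaagg

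These cores began 78 (C1qc), 117 (C3), 174 (Apoe) and 78 (Cst7) bases before the RefSeq start. For C1qc that start lies 151 bases inside the gene as GENCODE annotates it, so this core is upstream of the RefSeq start and within the GENCODE gene. The start of Lyz2 lies 49 bases inside, and the later starts of Apoe lie 567 and 790 bases inside. The printed windows of C3, Apoe and Cst7 precede a start that both annotations share. The log2 differences of C1qc and Apoe, the tested genes among these 4, were 0.02 and 0.04. The window of C1qb is shown whole for comparison, with its PU.1 core in capitals, 30 to 25 bases before the start. A match of 6 letters is a description of the sequence and says nothing of binding.
C1qb, chr4:136886201-136886450, minus strand: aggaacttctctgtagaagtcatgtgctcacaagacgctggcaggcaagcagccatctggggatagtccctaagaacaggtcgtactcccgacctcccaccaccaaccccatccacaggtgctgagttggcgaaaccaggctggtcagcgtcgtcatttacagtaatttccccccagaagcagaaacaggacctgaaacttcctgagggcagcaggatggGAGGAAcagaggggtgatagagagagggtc

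Downstream of C1q, C4b (chromosome 17, 34728380 to 34743882), the gene of the C4 protein in the mouse, was at 16.8, 13.4 and 15.2 FPKM in HET 1 to HET 3 and at 11.0, 12.1 and 15.7 FPKM in WT 1 to WT 3. WT 3 lay within the HET range, and the other WT libraries lay below it. The means were 15.1 ± 1.67 FPKM in HET and 12.97 ± 2.46 FPKM in WT libraries (SD, n = 3 each), and the log2 difference was 0.22 (SE 0.128, 95% interval -0.07 to 0.50). Leaving out WT 3 gave 0.35 and leaving out WT 1 gave 0.12, which differ by more than 1.5 times from 0.22. C4a, a near-identical neighbour whose reads could be shared with C4b, was listed at 0.0410 to 0.0982 FPKM in HET and 0.0323 to 0.0597 FPKM in WT libraries, under 1% of C4b in each library. C3 (chromosome 17, 57203970 to 57228136), which encodes the protein on which the complement pathways converge, was at 1.20, 0.472 and 0.910 FPKM in HET 1 to HET 3 and at 0.793, 0.561 and 0.541 FPKM in WT 1 to WT 3. HET 1 was highest and HET 2 lowest. About 21.6 to 59.1 fragments per library lay behind it by the estimated depths. The log2 difference without the filter was 0.17, with a 95% interval of -0.19 to 0.54.

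The complement proteases and later components were scarce. Of 19 such genes listed, 18 were in the tables and 2 were tested. These were Masp1, a lectin pathway protease gene (0.951 FPKM in HET and 1.19 FPKM in WT libraries, log2 difference -0.17, SE 0.139), and Cfp, the gene of properdin, which stabilises the alternative convertase (1.19 FPKM in HET and 1.09 FPKM in WT libraries, log2 difference 0.07, SE 0.137). C1rb, C8a and Cfd were listed at 0 in all 6 libraries. HET 1, HET 3, WT 1 and WT 3 each listed 4262 genes at exactly 0. Whether such a 0 means absence or a gene that was not quantified was not tested. Of 22 regulators and receptors, 11 were tested, with 8 above 0 and 3 below, a median of 0.08 (-0.00 over all tested genes) and 0 called. Serping1, the gene of the C1 inhibitor, was at 5.04, 6.94 and 5.82 FPKM in HET 1 to HET 3 and at 4.72, 4.37 and 4.43 FPKM in WT 1 to WT 3, without overlap (log2 difference 0.32, SE 0.112, limma adjusted p = 1.00). In 2 of the 11 all HET libraries lay above all WT libraries, and in 4.13% of all tested genes. Clu, the gene of clusterin, which blocks the terminal complex, was the most abundant at 337 ± 30.5 FPKM in HET and 318 ± 23.8 FPKM in WT libraries (SD, n = 3 each; log2 difference 0.08, SE 0.0945).

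Trem2 (chromosome 17, 48346401 to 48354147) was at 14.4, 11.3 and 16.6 FPKM in HET 1 to HET 3 and at 12.9, 16.3 and 14.5 FPKM in WT 1 to WT 3. HET 2 was the lowest library and HET 3 the highest, so that the WT range lay inside the HET range. The log2 difference was -0.05 (SE 0.134, 95% interval -0.35 to 0.25), and it was 0.09 without HET 2 and -0.17 without HET 3. Tyrobp (chromosome 7, 30413760 to 30417585) was at 44.6, 37.5 and 38.8 FPKM in HET 1 to HET 3 and at 34.0, 44.0 and 41.5 FPKM in WT 1 to WT 3. The genotypes overlapped (log2 difference 0.02, SE 0.104, 95% interval -0.21 to 0.25), and the sign turned without HET 1 (-0.05) and without WT 1 (-0.09). Of 15 genes of the signalling around TREM2, 10 were tested, 4 above 0 and 6 below, with a median of -0.05 and 0 called. Among them were Ptpn6, which encodes the phosphatase SHP-1 (1.56 FPKM in HET and 1.97 FPKM in WT libraries, log2 difference -0.20, SE 0.146), and the sheddase genes Adam17 (0.10, SE 0.0908) and Adam10 (30.9 FPKM in HET and 32.4 FPKM in WT libraries, log2 difference -0.07, SE 0.0614). In 1 of the 10, Adam10, all HET libraries lay below all WT libraries, as in 576 of the 13122 tested genes. Syk, the gene of the kinase downstream of TYROBP, was under the filter at 0.864 FPKM in HET and 0.671 FPKM in WT libraries.

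Apoe (chromosome 7, 19696109 to 19699188) was at 1915, 1668 and 1830 FPKM in HET 1 to HET 3 and at 1696, 1883 and 1689 FPKM in WT 1 to WT 3. The highest library was HET 1 and the lowest HET 2, and the groups overlapped (log2 difference 0.04, SE 0.115, 95% interval -0.22 to 0.30). All 16 listed partners in lipid transport were tested, with 10 above 0 and 6 below, a median of 0.03 and 0 called. The median was at -0.00 without HET 3 and without WT 2. Lcat, which encodes an enzyme that esterifies cholesterol on lipoproteins, was at 12.2 FPKM in HET and 10.4 FPKM in WT libraries (log2 difference 0.21, SE 0.0974). Sorl1, the gene of a sorting receptor that binds apolipoprotein E, was the most abundant at 34.6 FPKM in HET and 36.2 FPKM in WT libraries (-0.05, SE 0.107).

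Lyz2 (chromosome 10, 117277331 to 117282321), which encodes the lysozyme of macrophages, had the largest difference of the 8 tested genes. It was at 15.7, 17.9 and 13.3 FPKM in HET 1 to HET 3 and at 10.3, 13.1 and 12.1 FPKM in WT 1 to WT 3. The genotypes did not overlap, although HET 3 and WT 2 were close. The means were 15.6 ± 2.32 FPKM in HET and 11.8 ± 1.40 FPKM in WT libraries (SD, n = 3 each), with a ratio of 1.32 and a log2 difference of 0.37 (SE 0.117, 95% interval 0.10 to 0.63). Leaving out 1 library at a time gave 0.27 (without HET 2) to 0.47 (without HET 3). Lyz1, the adjacent and near-identical lysozyme gene, was at 0.265 to 0.482 FPKM in HET and 0.0778 to 0.289 FPKM in WT libraries, which was 2.00% to 2.69% of Lyz2 in HET and 0.714% to 2.21% in WT libraries. The sources used here do not state how reads common to the pair were counted. Cst7 (chromosome 2, 150570415 to 150578944), which encodes cystatin F, an inhibitor of lysosomal cathepsins and a common mark of the disease-associated state, was at 0.997, 0.261 and 0.0905 FPKM in HET 1 to HET 3 and at 0.315, 0.784 and 0.703 FPKM in WT 1 to WT 3. About 1.1 to 7.9 fragments per library lay behind it. The log2 difference without the filter was -0.18, with a 95% interval of -0.69 to 0.33. Of 6 cathepsin and cystatin genes around it, 5 were tested, 3 above 0 and 2 below, with a median of 0.04 and 0 called. The median was -0.03 without HET 1 and -0.00 without WT 3. Ctsh (8.88 FPKM in HET and 7.97 FPKM in WT libraries, log2 difference 0.14, SE 0.124) and Lgmn (47.7 FPKM in HET and 45.0 FPKM in WT libraries, 0.08, SE 0.0752) are lysosomal protease genes, and Cst3, the gene of cystatin C, was the most abundant at 2053 FPKM in HET and 1994 FPKM in WT libraries (0.04, SE 0.144).

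A reference for microglial content was set as the average, on the log2 scale, of 20 microglia genes outside the set, such as P2ry12, Cx3cr1, Tmem119 and Csf1r, all of which passed the filter. Some of them, such as P2ry12, are homeostatic genes that fall in the disease-associated state. The reference can therefore move with that state as well as with content, and differences relative to it are not corrected for content alone. It was 3.37, 3.15 and 3.27 in HET 1 to HET 3 and 3.21, 3.20 and 3.30 in WT 1 to WT 3. HET libraries held the highest and the lowest value of the reference. The difference of 0.03 between genotypes did not pass (two-sided exact permutation test, p = 0.7, n = 3 each, where the smallest possible p is 0.1). Of its 20 genes, 13 were above 0 and 7 below, with a median of 0.03 and 0 called, and without HET 1 the median was -0.02. Olfml3 (11.0 ± 1.02 FPKM in HET and 9.38 ± 1.38 FPKM in WT libraries, log2 difference 0.21, SE 0.109) and Aif1, the gene of the microglial protein IBA1 (8.26 ± 1.37 FPKM in HET and 9.88 ± 1.24 FPKM in WT libraries, SD, n = 3 each, log2 difference -0.24, SE 0.123), had the smallest p and opposite signs. Ctss, a cathepsin gene, was the most abundant at 93.0 FPKM in HET and 91.5 FPKM in WT libraries (0.02, SE 0.105).

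Taken relative to this reference within each library, the 8 tested genes had a median log2 difference of 0.08 in place of 0.10, with 5 above 0 and 3 below. Over all 13122 genes on the same scale 5210 were above 0 and 7912 below, with a median of -0.03. On this scale 0 of the 8 passed (limma across 13122 genes, adjusted p = 1.00 for each), against 0.0305% of all genes, which is 4 genes: Hist1h2ad, Rims1, Scn4b and Hist1h2bk (limma adjusted p = 0.00954 to 0.0494), named after their values were seen. The relative difference was 0.34 for Lyz2 (95% interval 0.07 to 0.61), 0.19 for C4b (-0.06 to 0.44), 0.17 for C1qa (-0.06 to 0.39) and 0.14 for C1qb (-0.09 to 0.37). For C1qc (-0.01), Tyrobp (-0.01), Apoe (0.01) and Trem2 (-0.08) it lay close to 0 or below. All HET libraries lay above all WT libraries in 1 of the 8, C1qa, and in 1.38% of all tested genes. In Lyz2 the relative value of HET 3 was below that of WT 2. With the reference as a covariate in the fit, 0 of the 8 passed (limma across 13122 genes, adjusted p = 1.00 for each), against 0% of all genes. The differences were then 0.38 for Lyz2 (SE 0.124), 0.17 for C1qa (SE 0.0674), 0.17 for C4b (SE 0.0964) and 0.14 for C1qb (SE 0.0839), with 0.00 for C1qc, -0.01 for Tyrobp, 0.03 for Apoe and -0.08 for Trem2.

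**Figure D3:**
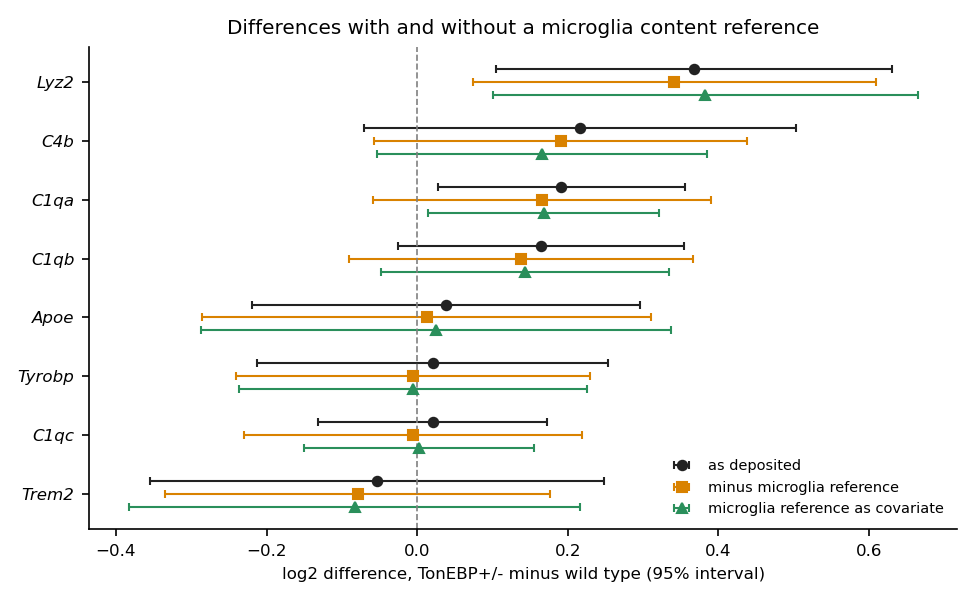
Log2 difference, TonEBP+/- minus wild type, of the 8 tested genes with 95% intervals, as deposited (circles), after subtracting the mean of the 20 microglia reference genes in each library (squares) and with that mean as a covariate (triangles). Lyz2 lies at 0.34 to 0.38 in all 3 forms, and Trem2, C1qc, Tyrobp and Apoe lie near 0.

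Across the 6 libraries the genes did not follow the reference alike. C1qc stood in the same order of libraries as the reference, with HET 2 lowest and HET 1 highest in both (Pearson r = 0.95, 6 libraries, a description in which both values share a library and its scaling). The r was 0.69 for C1qa and 0.58 for C1qb. Lyz2 did not follow it (r = -0.04), since HET 2 had the highest Lyz2 and the lowest reference. The genes most like the C1q mean in pattern over the 6 libraries, by r, were Nckap1l, Rnf121, Fam134c, Tcf3 and Zdhhc16 (0.98 to 0.99). Those most like Lyz2 were Rph3al, Slc25a26, Trps1, Prkx and Sdr42e1 (0.98 to 0.99). Over 6 libraries, picking the highest r among so many tested genes can give values this high for unrelated genes. Nothing is read from either set of names.

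**Figure D4:**
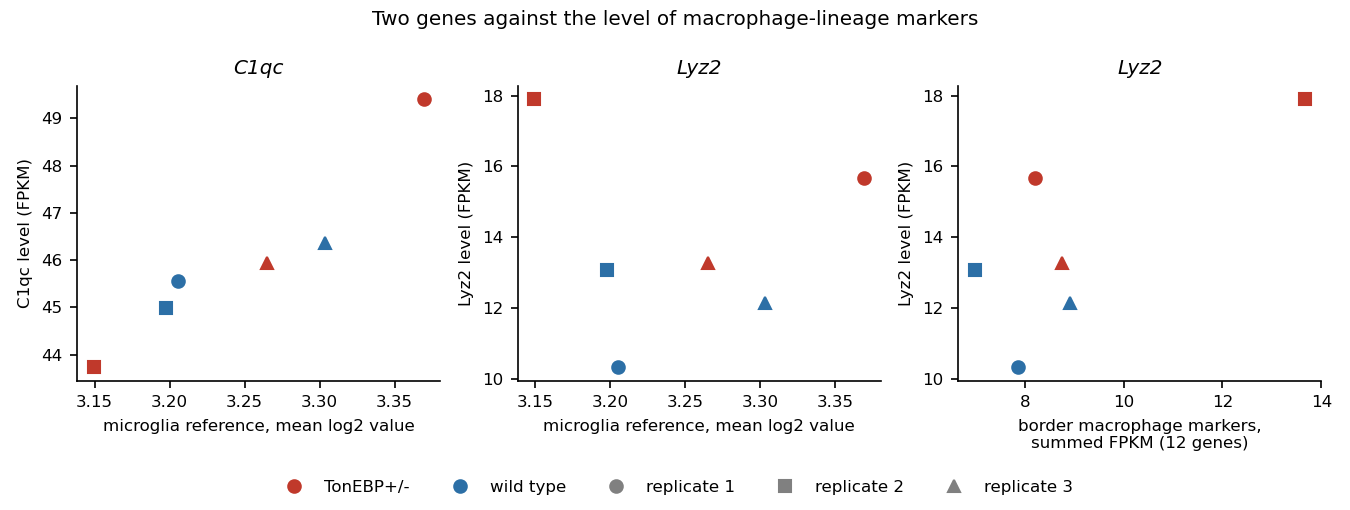
Level in FPKM of C1qc and Lyz2 in each library against the mean log2 value of the 20 microglia reference genes (left and middle) and of Lyz2 against the summed FPKM of 12 border macrophage markers (right). C1qc increases with the reference, whereas the library with the highest Lyz2, HET 2 at 17.9 FPKM, has the lowest reference and the highest sum of border macrophage markers.

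Markers of other myeloid cells were low. The 12 markers of border macrophages, the macrophages of meninges and perivascular spaces, which also transcribe Lyz2, summed to 8.20, 13.7 and 8.75 FPKM in HET 1 to HET 3 and to 7.87, 6.99 and 8.91 FPKM in WT 1 to WT 3. HET 2 stood above the other 5 libraries, and it was also the library with the highest Lyz2. Of the 12, 4 were tested and all 4 were above 0, with a median of 0.20 and 0 called. Without HET 2 the median was 0.01, with 3 above 0 and 1 below. The markers under the filter went both ways by mean. Lyve1 was lower, at 0.239 FPKM in HET and 0.456 FPKM in WT libraries, as were Folr2 and Cbr2. Cd163, Ms4a7, Mgl2, Clec10a and Ccr1 were higher in HET libraries. The tested genes were F13a1 (1.57 FPKM in HET and 1.02 FPKM in WT libraries, log2 difference 0.34, SE 0.144), Stab1 (2.00 FPKM in HET and 1.68 FPKM in WT libraries, 0.15, SE 0.139), Pf4 and Mrc1. Cbr2, Mgl2 and Clec10a were under 0.001 FPKM in at least 1 library. Monocyte and neutrophil markers (15 of 16 in the tables) summed to 2.91 to 5.31 FPKM in HET and 2.54 to 4.25 FPKM in WT libraries. Camp and Elane were listed at 0 in all 6, which may likewise mean that they were not quantified. The tested genes of that list were S100a8 (1.12 FPKM in HET and 0.643 FPKM in WT libraries, log2 difference 0.30, SE 0.520) and Csf3r (0.996 FPKM in HET and 1.05 FPKM in WT libraries, -0.04, SE 0.130). S100a8 was under 0.001 FPKM in HET 3 and WT 1 and reached 2.28 FPKM in HET 1 and 1.41 FPKM in WT 3. By list median, though not by sum, HET 2 was also the highest library in markers of meningeal fibroblasts. Its median was 0.51 above the wild-type mean on the log2 scale (-0.09 and 0.26 in HET 1 and HET 3, -0.07 to 0.06 in WT libraries). Its sum of 132 FPKM was below those of HET 3 (159 FPKM) and WT 2 (142 FPKM). In endothelial and mural markers HET 2 was highest by both, with a sum of 200 FPKM and a list median of 0.23 (-0.00 and -0.08 in HET 1 and HET 3, -0.13 to 0.10 in WT libraries). The part of all these cells in the Lyz2 values was not tested. Without HET 2 the log2 difference of Lyz2 was 0.27.

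Other genes of the disease-associated state lay on both sides of 0. Of 32 listed, 28 were tested, with 18 above 0 and 10 below, a median of 0.05 (-0.00 over all tested genes) and 0 called. Without HET 3 the median was -0.03, with 12 above 0 and 16 below. The list was set with results of these libraries known, and its direction is no independent evidence. Fcgr3, an Fc receptor gene of phagocytes, was at 15.0 ± 2.02 FPKM in HET and 12.4 ± 0.910 FPKM in WT libraries (log2 difference 0.25, SE 0.103, limma adjusted p = 1.00). Igf1, a growth factor gene of the same state, lay the other way at 2.45 ± 0.254 FPKM in HET and 3.06 ± 0.145 FPKM in WT libraries (SD, n = 3 each; -0.24, SE 0.107, limma adjusted p = 1.00). All HET libraries lay above all WT libraries in 2 of the 28, Gpnmb (log2 difference 0.27, SE 0.124) and Csf1 (0.16, SE 0.0917). All HET libraries lay below all WT libraries in 1, Igf1. Over the 13122 tested genes these were 542 and 576. Fth1, the ferritin heavy chain gene, was the most abundant at 1847 FPKM in HET and 2017 FPKM in WT libraries (-0.13, SE 0.136). Under the filter like Cst7, Clec7a averaged 0.782 FPKM in HET and 0.963 FPKM in WT libraries. Ch25h was also lower, at 0.182 FPKM in HET and 0.350 FPKM in WT libraries. Lilrb4a lay the other way, at 0.269 FPKM in HET and 0.212 FPKM in WT libraries. Itgax, from the list of complement regulators and receptors, was also under the filter. It averaged 0.0900 FPKM in HET and 0.159 FPKM in WT libraries. Clec7a did not overlap, with at most 0.869 FPKM in HET and at least 0.899 FPKM in WT libraries.

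**Figure D5:**
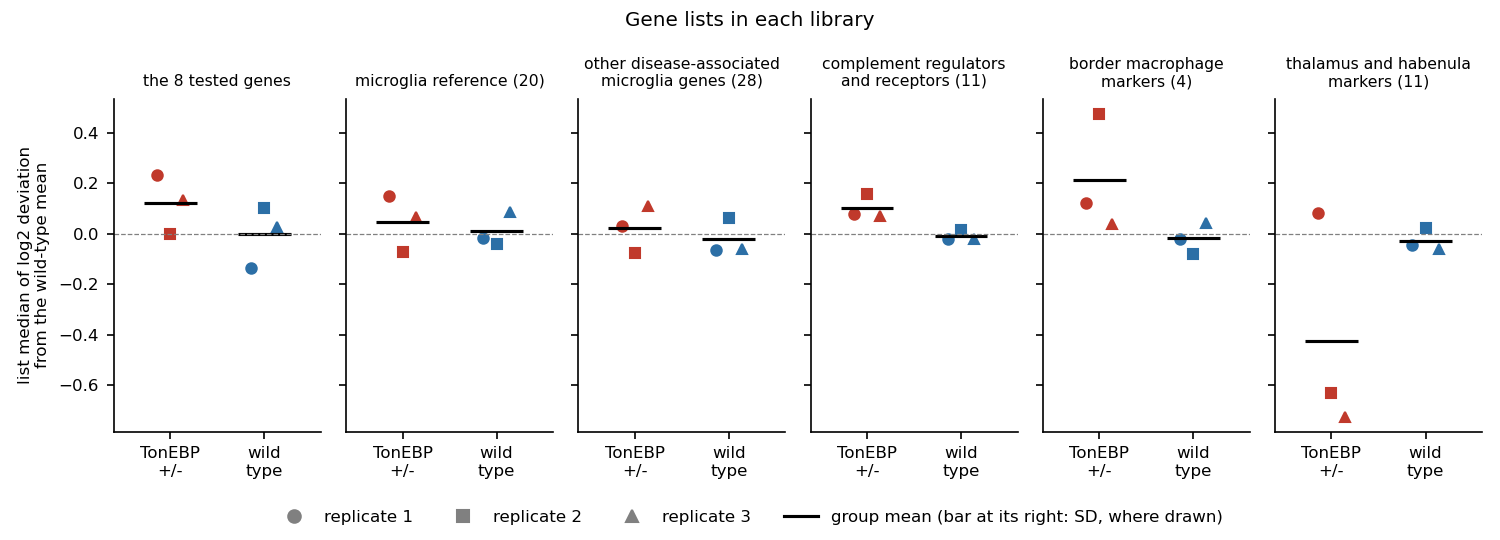
Median over the tested genes of each list of the log2 deviation from the wild-type mean, by library, with group means as lines. For the 8 tested genes HET 1 and HET 3 lie at 0.23 and 0.14 and HET 2 at -0.00, against -0.14 to 0.10 in wild type, and thalamus and habenula markers are low in HET 2 and HET 3.

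Because astrocytes and oligodendrocytes also transcribe Apoe and C4b, their markers were read beside them. Astrocyte markers (14 of 14 tested) were above 0 in 8 and below in 6, with a median of 0.02 (-0.05 without HET 1 and -0.04 without WT 3), and summed to 1736 to 1992 FPKM in HET and 1698 to 1810 FPKM in WT libraries. Slc1a2, the main glutamate transporter gene of astrocytes, was the most abundant at 610 FPKM in HET and 602 FPKM in WT libraries (log2 difference 0.02, SE 0.104). Gfap, the gene of the astrocytic intermediate filament, was at 297 FPKM in HET and 253 FPKM in WT libraries (0.23, SE 0.119), and Slc1a3 at 166 FPKM in HET and 152 FPKM in WT libraries (0.13, SE 0.0699). Reactive astrocyte genes (11 of 14 tested) were above 0 in 9 and below in 2, with a median of 0.15 and 0 called. Their summed level did not overlap, at 82.3 to 86.0 FPKM in HET and 68.9 to 75.1 FPKM in WT libraries. In 3 of the 11 all HET libraries lay above all WT libraries, and in 4.13% of all tested genes. The list was set with results of these libraries known, so nothing is read from its direction or its separation. Vim, another intermediate filament gene, had the smallest p of this list at 28.5 FPKM in HET and 23.2 FPKM in WT libraries (0.28, SE 0.0720, limma adjusted p = 1.00) and was also its most abundant gene. Cp, the ceruloplasmin gene, was next by p, with a larger difference, at 8.33 FPKM in HET and 6.20 FPKM in WT libraries (0.37, SE 0.105, limma adjusted p = 1.00). Oligodendrocyte markers (10 of 10 tested) were above 0 in 1 and below in 9, with a median of -0.05 and sums of 3258 to 4560 FPKM in HET and 4034 to 4266 FPKM in WT libraries. This direction rested on HET 2. Its list median was -0.31, against 0.08 and 0.09 in HET 1 and HET 3, and without HET 2 the markers were above 0 in 9 and below in 1, with a median of 0.08. Without WT 3 the median was 0.00. The part of these lists in the C4b and Apoe values was not tested.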

How the data were processed

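Hippocampal total RNA was prepared with a directional NEBNext Ultra II kit, per the labels' protocols. The submitters' processing notes name TopHat and the build mm10. The sources used here name neither the annotation nor the quantification program. The authors deposited log2 values; the base, the added 1 and the FPKM-like unit were read from the values. With another unit the FPKM levels would change. Where a log base were wrong, the log2 differences would change too.

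The members and all gene lists were chosen with earlier results of these data known. Genes at 1 FPKM or more in 3 libraries (13122) were tested by limma 3.58.1 (R 4.3.3) on the deposited log2 values (genotype only, trend and robust eBayes), with Benjamini-Hochberg adjustment over all genes and a threshold of 0.05. The added 1 shrinks the differences of weakly expressed genes. The fit was tested on simulated data. Single summary values had a two-sided exact permutation test. Fragment numbers were estimated from the spacing of low values in transcripts of 600 to 8000 bases, of which 67.2% to 71.2% lay within 0.15 of a whole step, and cover counting error only. Named genes were the members, Lyz1 and C4a, the genes with the smallest p (2) and the highest level (1) in each list described, the 5 most alike in pattern, and Nfat5. Pf4, Mrc1, Syk, Clec7a, Itgax, Gpnmb, Csf1, Ch25h, Lilrb4a, the border macrophage markers under the filter and genes listed at 0 were named after their values were seen. Some genes that this rule names are not reported here. Of the lists, those of endothelium, meninges, choroid plexus, blood, neurons and interferon response are given in the closing section. Positions are from GENCODE M21 (GRCm38, the assembly of mm10) and promoters from RefSeq (GRCm38.p6). Python 3.11.15 with matplotlib 3.10.9 drew the figures.

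Alternatives were quantile normalization, median scaling, scaling to a sum of 1000000, no filter, a mean of at least 5 FPKM, a pseudocount of 0.1, no robust option, a replicate block, each library left out, and other forms of the reference.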

Additional observations from a re-analysis of the deposited data

How the results depend on the processing

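Of 13122 genes, 0 passed with all 6 libraries as deposited (484 had an unadjusted p under 0.05) and 4 relative to the microglia reference, and 0 to 8 passed with 1 library left out (8 without HET 1, 1 each without HET 3, WT 1 and WT 2), none of them among the 8 genes described. The median difference of the 8 genes (0.10) ran from 0.04 without HET 1, when 4 of 8 were above 0, to 0.15 without HET 2, when all 8 were. Relative to the microglia reference (0.08) it ran from 0.05 to 0.13, was 0.06 with a reference of 5 genes and 0.12 with the median of the reference genes. The difference of the reference itself (0.03) ran from -0.0282 without HET 1 to 0.0818 without HET 2. Scaling each library to a sum of 1000000 moved the median of all genes to 0.73, of the 8 genes to 0.96 and of their relative values to 0.27, and single values of 2507040 FPKM in WT 1 and 2173960 FPKM in WT 2 enter that sum. With the sum over protein-coding genes alone, which was added after seeing the data, the medians were 0.10 and 0.07. C1qa, C1qb, C4b and Lyz2 kept their sign in all 16 alternatives each, but not every alternative could turn a sign. Dropping or tightening the filter, switching off robust fitting and blocking by replicate leave the group means of a gene as they are. The differences under these settings, such as 0.19 for C1qa and 0.37 for Lyz2, were thus fixed in advance. C1qc changed sign without HET 1, Apoe without HET 1 and with quantile normalization, Trem2 without HET 2, without WT 2 and with scaling to 1000000, and Tyrobp without HET 1, without WT 1 and with the covariate. Deviations from the group mean correlated at -0.21, -0.25 and -0.16 between same-numbered libraries, and at 0.05 to 0.17 between the others. With 3 libraries per group these values cannot decide whether the numbers pair the libraries. The replicate block left 0 genes past the threshold. It cannot change a difference of group means, so the median of 0.10 was fixed in advance. C3 and Cst7 rested on few fragments. Gene lists without each library were added after seeing the data.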

Other observations

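Meningeal and fibroblast markers (10 of 13 tested) were all above 0, with a median log2 difference of 0.18 and 0 called. Without HET 2 the median was 0.05, with 6 above 0 and 4 below. Ogn, a small proteoglycan gene, was at 8.65 FPKM in HET and 6.90 FPKM in WT libraries (0.27, SE 0.154), Fmod at 2.06 FPKM in HET and 1.11 FPKM in WT libraries (0.44, SE 0.286), and Igfbp2, the most abundant, at 42.2 FPKM in HET and 40.5 FPKM in WT libraries (0.05, SE 0.508). Choroid plexus markers, of which the transthyretin gene Ttr was the most abundant, summed to 195 to 4291 FPKM in HET and 449 to 3502 FPKM in WT libraries, so that the ranges overlapped widely. Neuronal markers (12 tested) were above 0 in 3 and below in 9, with a median of -0.09, and Nefm, a neurofilament gene, had the smallest p (28.6 FPKM in HET and 34.0 FPKM in WT libraries, -0.24, SE 0.0941). Endothelial and mural markers (11 tested) had a median of 0.03 (-0.06 without HET 2 and -0.03 without WT 2). Red cell genes (4 tested) had one of 0.12 (-0.04 without HET 3) and interferon-response genes (10 tested) one of -0.04 (0.01 without HET 1 or without WT 2), with 0 called in each list.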
